A study of Rattus norvegicus with 12 samples.

Results

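The genes described here write, copy and remove DNA methylation: the methyltransferases Dnmt1, Dnmt3a and Dnmt3b, the adaptor Uhrf1 and the dioxygenase Tet3. Their transcripts were measured in rat testes at embryonic day 16. Every probe set whose array annotation named exactly 1 of these 5 genes was taken, which gave 8 of 31042 probe sets: 1 for Dnmt1, 2 for Dnmt3a, 1 for Dnmt3b, 1 for Uhrf1 and 3 for Tet3. Of these, 7 passed the filter on low signal and were tested together with all 21729 probe sets that passed. The remaining Tet3 probe set, 1380493_at, was below the filter and is described apart.

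Arrays came in 6 groups of 2, a control and a vinclozolin lineage for F1, for F2 and for F3. According to the labels, the pregnant founders of the vinclozolin lineage were injected intraperitoneally with 100 mg/kg/day of vinclozolin, a fungicide that acts as an anti-androgen, on days 8 to 14 of pregnancy. The founders of the control lineage were injected with the vehicle, sesame oil and DMSO, on the same days. F1 embryos were in the womb during dosing, and F2 and F3 embryos came from later matings with no further dosing described. For the vinclozolin lineage in F2 and F3 the protocols speak of mated animals from different control lines, and the groups were taken from the sample titles. Each array was hybridised with RNA from a pool of about 10 testes. Whether pools of the same group came from separate litters is not stated, so p-values measure the spread between these pools, which may be technical.

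Dnmt1 copies methylation onto the new DNA strand after replication, and Uhrf1 binds hemimethylated DNA and brings Dnmt1 to it. Dnmt3a and Dnmt3b place methyl groups at sites that had none, and Tet3 oxidises methylated cytosine, a step toward its removal. In the fetal testis the germ cells, which lost most of their methylation earlier, enter the phase in which male germline methylation is laid down again. Germ cells are a minority of the organ, and all 5 genes can also be transcribed in its somatic cells. In whole-tissue RNA, fewer cells of a type and less RNA per cell cannot be told apart.

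All 7 tested probe sets of the 5 genes were lower in the vinclozolin lineage in F1, 4 of 7 were lower in F2 and 0 of 7 in F3, at an adjusted p under 0.05 in limma (called, from here on). None was called higher in any generation. Called lower in F1 were 13.7% of all 21729 probe sets, against 9.65% in F2 and 2.06% in F3. The median log2 difference of the 7 probe sets, vinclozolin minus control on the log2(signal + 16) scale, was −0.73 in F1, −0.68 in F2 and −0.26 in F3, beside −0.01 over all probe sets in each generation. In F3, 3 of the 7 had an unadjusted p under 0.05: Dnmt1, Uhrf1 and Dnmt3a 1384804_at. Averaged over the generations, all 7 were called lower, with a median of −0.53, where 19.2% of all probe sets were. None was called lower in all 3 generations, as 0.907% of all probe sets were.

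**Figure D1:**
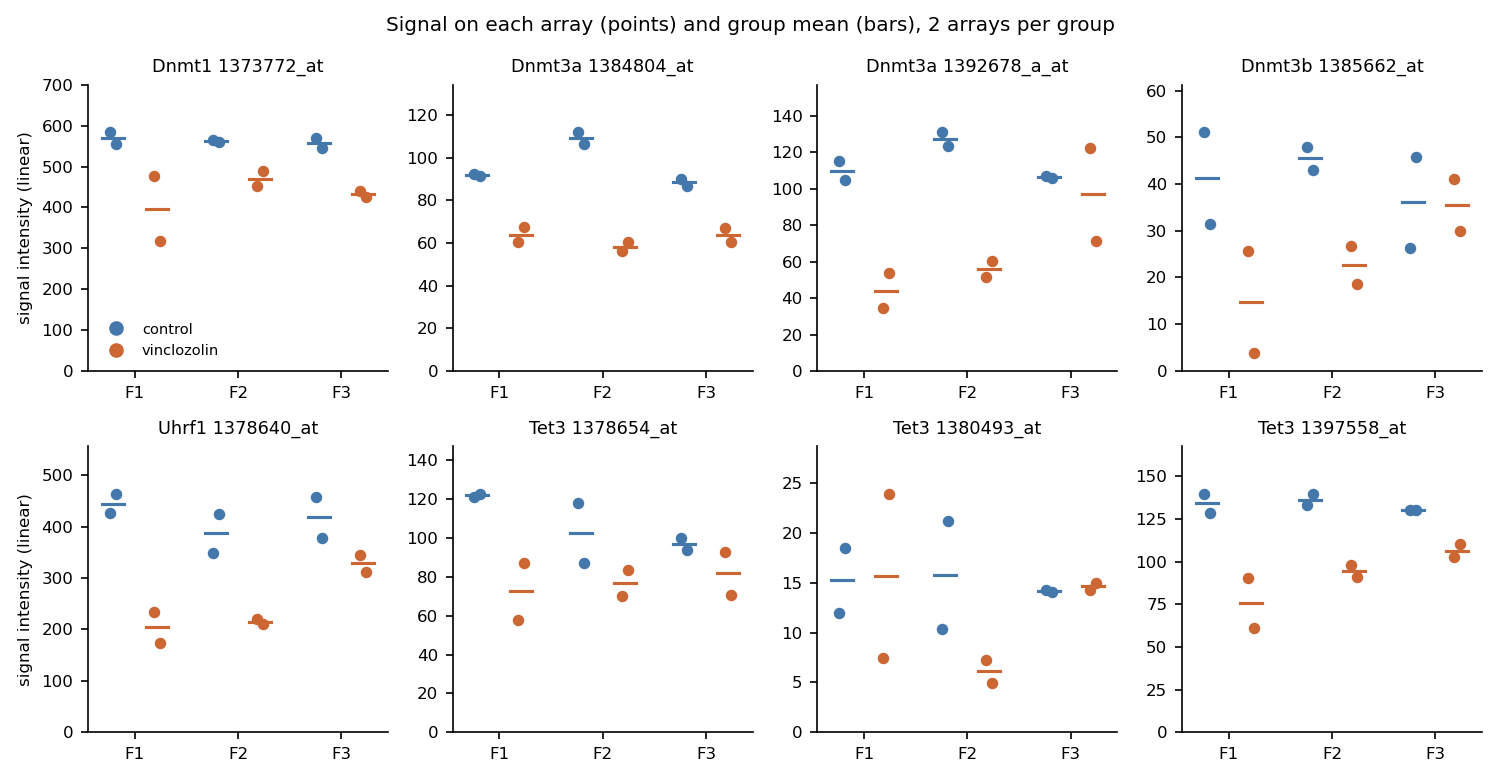
Signal intensity (linear scale, as deposited) of the 8 probe sets on each of the 12 arrays, by generation, with control and vinclozolin arrays marked separately and bars at the mean of 2 arrays. The vinclozolin points lie below all 6 control points for Uhrf1, Dnmt1, Dnmt3a 1384804_at and Tet3 1397558_at, and the dim Tet3 1380493_at runs between 4.9 and 23.9.

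RNA quality moved with the lineage. The ratio of the 5′ to the 3′ beta-actin probe set, which drops when RNA is degraded or short copies are made, ran from 0.423 to 0.471 on the control arrays. It was 0.149 to 0.192 on the F1, 0.219 to 0.246 on the F2 and 0.360 to 0.395 on the F3 vinclozolin arrays. The Gapdh ratio was 0.959 to 1.02 on the control arrays, 0.651 to 0.718 on the F1, 0.721 to 0.800 on the F2 and 0.970 to 1.02 on the F3 vinclozolin arrays. With the beta-actin ratio as a covariate in the fit, 0 of the 7 probe sets were called in any generation, and of all 21729 the calls were 0 in F1, 0 in F2 and 7 in F3. The ratios of the lineages did not overlap within any generation, so lineage and this ratio cannot be told apart. Array medians were 44.5 to 47.1 in the control and 40.6 to 42.9 in the vinclozolin lineage.

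Uhrf1 showed the smallest adjusted p of the 5 genes in F1 and over the mean. Its probe set, 1378640_at, gave signals of 426 and 464 in F1 control, 349 and 424 in F2 control and 458 and 378 in F3 control. The vinclozolin arrays gave 233 and 175 in F1, 219.7 and 211 in F2 and 345 and 312 in F3. All 6 vinclozolin arrays were below all 6 control arrays, a separation shown by 7.73% of all probe sets. The lineage means were 416 ± 44.9 and 249 ± 65.3 (SD, n = 6). As a share of the control mean, Uhrf1 stood at 45.8% in F1, 55.7% in F2 and 78.6% in F3.

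The Uhrf1 log2 difference was −1.08 ± 0.14 (SE) in F1, with a limma adjusted p of 7.32e-05. It was −0.79 ± 0.14 in F2 (adjusted p = 0.0015) and −0.33 ± 0.14 in F3 (adjusted p = 0.210), so F3 did not pass the threshold. The F1 and F2 calls held under 23 of 24 alternatives and turned sign with the beta-actin ratio as covariate, to 0.72 ± 0.53 in F1 and 0.54 in F2. Ordered by group mean, the F3 controls (418) overlapped both the F1 controls (445) and the F2 controls (387), which did not overlap each other, F3 vinclozolin followed at 329, and F2 and F1 vinclozolin, at 215 and 204, overlapped each other.

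Uhrf1 was the only tested member with a called difference between generations. The F1 difference minus the F3 difference was −0.75 ± 0.19, with an adjusted p of 0.0386. The F1 minus F2 value was −0.29 ± 0.19 (adjusted p = 0.645) and the F2 minus F3 value −0.46 ± 0.19 (adjusted p = 0.318), and neither passed. The F test over all 3 generations missed the threshold (limma adjusted p = 0.101). The F1 minus F3 call held under 8 of 23 alternatives, with adjusted p-values between 0.00222 and 0.961 over them. It was lost when any 1 array was left out except F1 vinclozolin replicate 1. The beta-actin ratio was likewise farthest from the controls in F1 and nearest to them in F3, and with it as a covariate the value was 0.57 and not called.

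Dnmt1, the maintenance enzyme that Uhrf1 recruits, was called lower in F1 and over the mean. Its probe set, 1373772_at, gave control signals of 584 and 555 in F1, 566 and 561 in F2 and 571 and 545 in F3. Vinclozolin signals were 477 and 317 in F1, 452 and 488 in F2 and 439 and 426 in F3. The control arrays were tightly grouped at 564 ± 13.5 (SD, n = 6), and every vinclozolin array was below them, at 433 ± 61.4. F1 vinclozolin replicate 2, at 317, was the lowest array and was also the array with the lowest beta-actin ratio, 0.149.

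Dnmt1 stood at 69.7% of the control mean in F1, 83.4% in F2 and 77.5% in F3. The log2 difference was −0.53 ± 0.13 in F1 (limma adjusted p = 0.0102), −0.26 ± 0.13 in F2 (adjusted p = 0.227) and −0.36 ± 0.13 in F3 (adjusted p = 0.167). Averaged over generations it was −0.38 ± 0.08 (adjusted p = 0.0016). The F1 call rested on single arrays: without F1 vinclozolin replicate 2 the difference was −0.25 (adjusted p = 0.0597) and without F1 control replicate 1 it was −0.49 (adjusted p = 0.0788). Leaving out F1 vinclozolin replicate 1 or 2 did not change the Dnmt1 differences in F2 and F3, −0.26 and −0.36. It lowered their SE from 0.13 to 0.07, and both were then called lower. All groups share 1 estimate of the spread. The SD of the Dnmt1 log2 values was 0.40 in F1 vinclozolin and 0.03 in F3 vinclozolin. The 3 control groups (569, 563 and 558) overlapped one another. F1 vinclozolin (397) overlapped F3 vinclozolin (433) and F2 vinclozolin (470), which did not overlap each other.

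Promoter windows of Uhrf1 and Dnmt1 are shown because these genes form the maintenance pair, and both windows hold letters of the E2F type, the motif of factors that switch on replication genes. The letters searched were TTTCCCGC, TTTGGCGC, TTTCGCGC and TTTGCCGC, and CCAAT, on both strands. These motifs were chosen after the expression values were known. The sequences are RefSeq windows of GRCr8, 250 bases before to 50 after the annotated start, 5′ to 3′ on the gene's strand, with matches in capitals. Uhrf1 is at chr9:1222936-1223235 (plus strand), the third of 3 annotated starts and the only one of these windows with an E2F-type match. Dnmt1 is at chr8:27762792-27763091 (minus strand).
Uhrf1: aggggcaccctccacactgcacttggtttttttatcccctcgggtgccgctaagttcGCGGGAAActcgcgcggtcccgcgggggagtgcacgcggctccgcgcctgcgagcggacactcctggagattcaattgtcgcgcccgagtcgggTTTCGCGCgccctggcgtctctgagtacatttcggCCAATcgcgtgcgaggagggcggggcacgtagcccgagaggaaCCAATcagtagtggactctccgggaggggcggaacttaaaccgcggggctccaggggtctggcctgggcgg
Dnmt1: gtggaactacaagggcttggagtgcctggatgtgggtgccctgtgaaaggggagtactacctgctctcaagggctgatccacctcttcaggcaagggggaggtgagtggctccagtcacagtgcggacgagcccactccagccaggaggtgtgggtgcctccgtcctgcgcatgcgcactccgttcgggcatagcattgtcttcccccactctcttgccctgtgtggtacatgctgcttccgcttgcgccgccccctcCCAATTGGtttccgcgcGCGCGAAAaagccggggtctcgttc
In the Uhrf1 window the E2F-type letters lie at bases 58 to 65 (TTTCCCGC, opposite strand) and 152 to 159 (TTTCGCGC), and CCAAT at 187 to 191 and 230 to 234. In the Dnmt1 window TTTCGCGC lies on the opposite strand at bases 276 to 283, and CCAAT matches on both strands overlap at 259 to 263 and 262 to 266. E2F-type letters were present in 2.14% and CCAAT in 37.5% of all 33469 windows of this length. The Uhrf1 window held 35 CpG and the Dnmt1 window 17, beside a median of 7 over all windows. At least as many CpG were held by 6.13% of windows for Uhrf1 and 29% for Dnmt1. The other Uhrf1 windows held 8 and 13 CpG, with at least as many in 47.6% and 35.3% of windows. The 1 window of Dnmt3a and the 4 of Tet3 held none of the E2F-type letters, and Dnmt3b had no window. A match is a description of the letters only.

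Other genes of DNA replication and division moved in both directions. Of 23 listed S phase and proliferation genes, 20 were tested: 6 were called higher and 2 lower in F1, 1 higher and 1 lower in F2, and 0 in F3. The background called higher was 9.41% in F1, 4.7% in F2 and 1.05% in F3. Their median log2 difference was 0.11 in F1, 0.06 in F2 and −0.01 in F3, beside 0.02, 0.04 and 0.01 over the brightest probe sets of 11287 genes. In F1 the rises included Pola1, a catalytic subunit of DNA polymerase alpha (0.51, limma adjusted p = 0.00731), and Rrm1, of ribonucleotide reductase (0.49, adjusted p = 0.0133). The largest fall was Aurkb, a mitotic kinase (−0.52, adjusted p = 0.00204). The summed signal of the 20 genes was 12916 to 13267 on control arrays, 13608 to 14740 in F1 and 13617 to 13764 in F2 vinclozolin, and 12705 to 12999 in F3 vinclozolin.

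Dnmt3a, the main de novo methyltransferase of male germ cells, was read by 2 tested probe sets. On 1384804_at the control arrays gave 92.2 and 91.6 in F1, 112 and 106 in F2 and 90.2 and 86.5 in F3. The vinclozolin arrays gave 60.4 and 67.4 in F1, 56.0 and 60.5 in F2 and 67.2 and 60.4 in F3. The lineages did not overlap, at 96.4 ± 10.1 and 62.0 ± 4.46 (SD, n = 6), and the vinclozolin groups overlapped one another.

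On this probe set Dnmt3a stood at 69.5% of control in F1, 53.4% in F2 and 72.2% in F3. The log2 difference was −0.43 ± 0.13 in F1 (limma adjusted p = 0.0223), −0.75 ± 0.13 in F2 (adjusted p = 0.00137) and −0.39 ± 0.13 in F3 (adjusted p = 0.112). The mean over generations was −0.53 ± 0.07 (adjusted p = 7.99e-05). The F2 call held under 23 of 24 alternatives. The F1 call was lost under 8 of 24, among them median centring (−0.32, adjusted p = 0.0821) and leaving out F1 control replicate 1 (adjusted p = 0.112), F1 control replicate 2 (adjusted p = 0.109) or F1 vinclozolin replicate 1 (adjusted p = 0.0616).

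The other Dnmt3a probe set, 1392678_a_at, gave control signals of 115 and 105 in F1, 131 and 124 in F2 and 107 and 106 in F3. Vinclozolin signals were 34.7 and 53.6 in F1, 51.6 and 60.4 in F2 and 123 and 71.2 in F3. The F1 and F2 vinclozolin arrays were below the controls, and in F3 replicate 1 lay among the controls while replicate 2 did not. The difference was −1.08 ± 0.19 in F1 (limma adjusted p = 0.00106) and −0.995 ± 0.19 in F2 (adjusted p = 0.00349), or 40.1% and 44.0% of control. In F3 it was −0.15 ± 0.19 (adjusted p = 0.737), with a 95% interval of −0.57 to 0.26, and 91.1% of control. The mean over generations was −0.74 ± 0.11 (adjusted p = 0.000148). The F1 minus F3 value was −0.93 ± 0.27 and missed the threshold (adjusted p = 0.0705).

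The Dnmt3a probe sets differed from each other in F1. Their log2 difference, 1384804_at minus 1392678_a_at, lay between −0.28 and −0.17 on the 6 control arrays, so that both read the control lineage in a nearly fixed ratio. On vinclozolin arrays it was 0.59 and 0.26 in F1, 0.09 and 0.00 in F2, and −0.74 and −0.19 in F3. Within the lineage comparison the gap between probe sets was 0.65 ± 0.19 in F1 (95% interval 0.23 to 1.07, limma adjusted p = 0.0192), where 37.3% of 6158 within-gene pairs were called. It was 0.24 ± 0.19 in F2 (−0.17 to 0.66, adjusted p = 0.360; background 29.8%) and −0.23 ± 0.19 in F3 (−0.65 to 0.18, adjusted p = 0.560; background 2.29%). Over the mean it was 0.22 ± 0.11 (−0.02 to 0.46, adjusted p = 0.120), where 48.8% of pairs were called.

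Thus in F1 the fall read by 1392678_a_at was larger than that read by 1384804_at. The F1 call was lost without F1 control replicate 1 (adjusted p = 0.1003), F1 control replicate 2 (adjusted p = 0.0601) or F1 vinclozolin replicate 1 (adjusted p = 0.105). RefSeq lists 3 pseudogenes of Dnmt3a and 2 of Dnmt3b, and the positions and sequences of the probes were not used here, so the share of signal from near-identical copies was not tested.

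**Figure D2:**
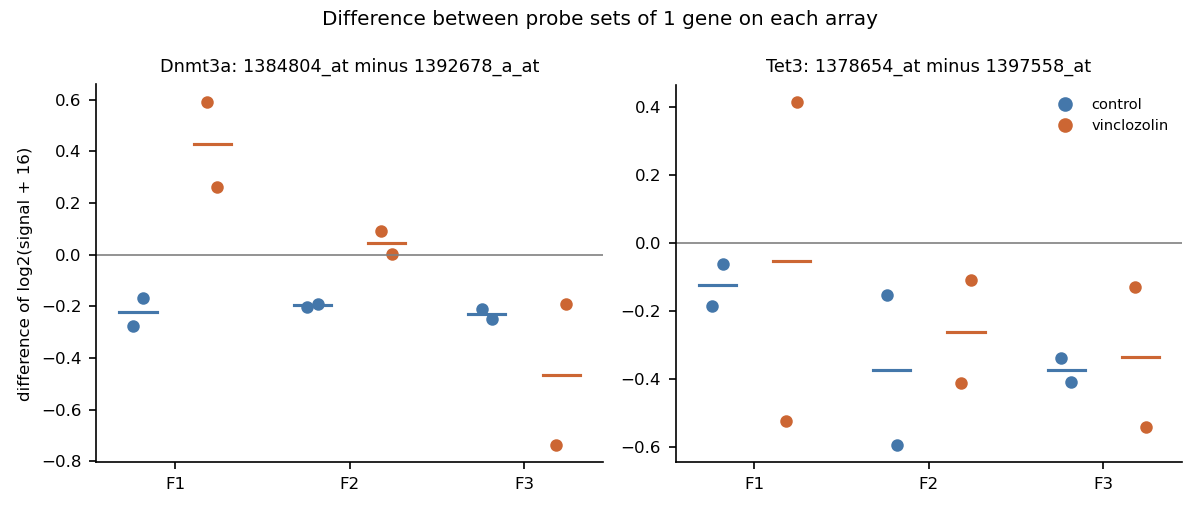
Difference of log2(signal + 16) between the tested probe sets of Dnmt3a (1384804_at minus 1392678_a_at) and of Tet3 (1378654_at minus 1397558_at) on each array, by generation and lineage. For Dnmt3a the 6 control arrays lie between −0.28 and −0.17, and the vinclozolin arrays run from 0.59 in F1 to −0.74 in F3.

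Dnmt3b, the de novo enzyme best known for methylating repeats near centromeres, was the dimmest tested member on its 1 probe set, 1385662_at. Control signals were 51.1 and 31.4 in F1, 48.0 and 43.0 in F2 and 26.4 and 45.9 in F3. Vinclozolin signals were 25.7 and 3.9 in F1, 26.7 and 18.6 in F2 and 41.1 and 30.0 in F3. The lineages separated in F1 and F2 and overlapped in F3, and F1 vinclozolin replicate 2 was the lowest array. The share of all probe sets that separate within a generation was not counted.

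Dnmt3b stood at 35.9% of control in F1, 49.8% in F2 and 98.3% in F3. The log2 difference was −0.97 ± 0.30 in F1 (limma adjusted p = 0.0278), −0.68 ± 0.30 in F2 (adjusted p = 0.145) and 0.00 ± 0.30 in F3 (adjusted p = 0.999). The F3 interval, −0.63 to 0.63, leaves room for a change of either sign. The mean over generations was −0.55 ± 0.17 (adjusted p = 0.0221). The F1 value was −0.44 (adjusted p = 0.315) without F1 vinclozolin replicate 2 and −0.72 (adjusted p = 0.216) without F1 control replicate 1. The mean lost its call under 9 of 25 alternatives, among them the mean without F1 (−0.34, adjusted p = 0.289).

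Tet3, the TET enzyme of the oocyte and of many somatic tissues, was read by 3 probe sets. The brightest, 1397558_at, gave control signals of 139.8 and 129 in F1, 133 and 139 in F2 and 130.4 and 130.0 in F3. Vinclozolin signals were 90.4 and 61.4 in F1, 98.3 and 91.2 in F2 and 103 and 110.2 in F3. All vinclozolin arrays were below all controls, and the group means rose from 75.9 in F1 to 94.8 in F2 and 106 in F3, with no overlap between these groups. Tet3 stood at 56.6%, 69.6% and 81.8% of control on this probe set.

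Its log2 difference was −0.73 ± 0.14 in F1 (limma adjusted p = 0.00204), −0.46 ± 0.14 in F2 (adjusted p = 0.0431) and −0.26 ± 0.14 in F3 (adjusted p = 0.367). The mean over generations was −0.48 ± 0.08 (adjusted p = 0.000418). The F2 call was lost under 17 of 24 alternatives, including median centring (−0.34, adjusted p = 0.0953), and without any 1 array other than the F1 vinclozolin arrays (adjusted p between 0.0552 and 0.205). The F1 minus F3 value, −0.47 ± 0.20, did not pass (adjusted p = 0.215).

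Tet3 1378654_at gave control signals of 121 and 123 in F1, 118 and 86.9 in F2 and 99.8 and 93.9 in F3. Vinclozolin signals were 58.0 and 87.2 in F1, 69.9 and 83.3 in F2 and 92.6 and 70.8 in F3. The vinclozolin arrays were below the controls within each generation, but F1 vinclozolin replicate 2 and F3 vinclozolin replicate 1 were above the lowest control array. How many of all probe sets separate within a generation was not counted. The difference was −0.66 ± 0.18 in F1 (limma adjusted p = 0.0144), −0.35 ± 0.18 in F2 (adjusted p = 0.212), −0.22 ± 0.18 in F3 (adjusted p = 0.566) and −0.41 ± 0.10 over the mean (adjusted p = 0.00649). The F1 call was lost without F1 control replicate 1 (adjusted p = 0.0724), F1 control replicate 2 (adjusted p = 0.0829) or F1 vinclozolin replicate 1 (−0.42, adjusted p = 0.0954). The mean was not called without F1 (−0.28, adjusted p = 0.136).

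The Tet3 pair did not differ detectably: 1378654_at minus 1397558_at was 0.07 ± 0.28 in F1 (95% interval −0.53 to 0.67, limma adjusted p = 0.863), 0.11 in F2 (−0.49 to 0.71), 0.04 in F3 (−0.56 to 0.64) and 0.07 ± 0.16 over the mean (−0.27 to 0.42). These intervals do not show that the probe sets read alike. The dim 1380493_at gave 12, 18.5, 10.4, 21.2, 14.3 and 14.1 on the control arrays and 7.5, 23.9, 7.3, 4.9, 14.3 and 15.0 on the vinclozolin arrays, in the order F1, F2, F3. The lineages overlapped in F1 and F3 and not in F2. Fitted without the filter, a setting chosen after seeing the data, its differences were −0.02 in F1, −0.51 ± 0.25 in F2 and 0.02 in F3, and none was called (adjusted p = 0.972, 0.254 and 0.985).

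**Figure D3:**
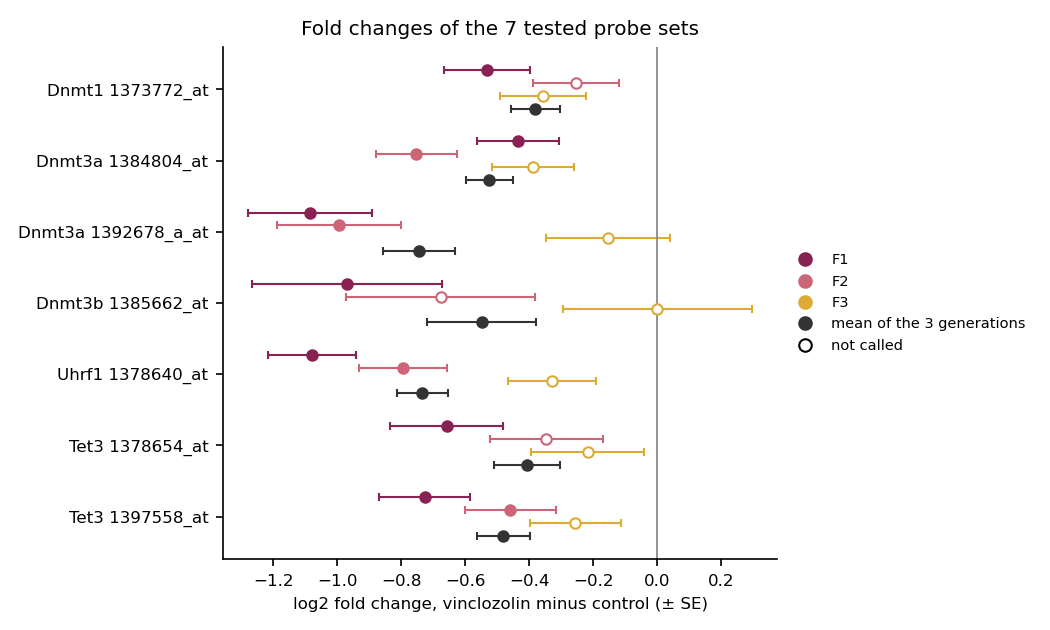
Log2 difference (vinclozolin minus control, log2(signal + 16) scale) of the 7 tested probe sets in each generation and over the mean, with bars for ± SE and filled points for called differences. In F1 all 7 differences are called and lie below 0, from −1.08 for Dnmt3a 1392678_a_at and Uhrf1 to −0.43 for Dnmt3a 1384804_at, and in F3 the differences run from −0.39 to 0.00.

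Across the 7 probe sets, the F test of the generations called 0, where it called 2.6% of all probe sets, and 2 had an unadjusted p under 0.05 (Uhrf1 and Dnmt3a 1392678_a_at). Among the 3 control groups the same kind of test called 0 of the 7 and 0% of all probe sets, with 517 of 21729 at an unadjusted p under 0.05 and 0 of the 7 among them. For Dnmt1 the control groups were 569, 563 and 558, which overlapped. For Dnmt3a 1384804_at the F2 controls (109) were above the F1 controls (91.9) and the F3 controls (88.4) without overlap.

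**Figure D4:**
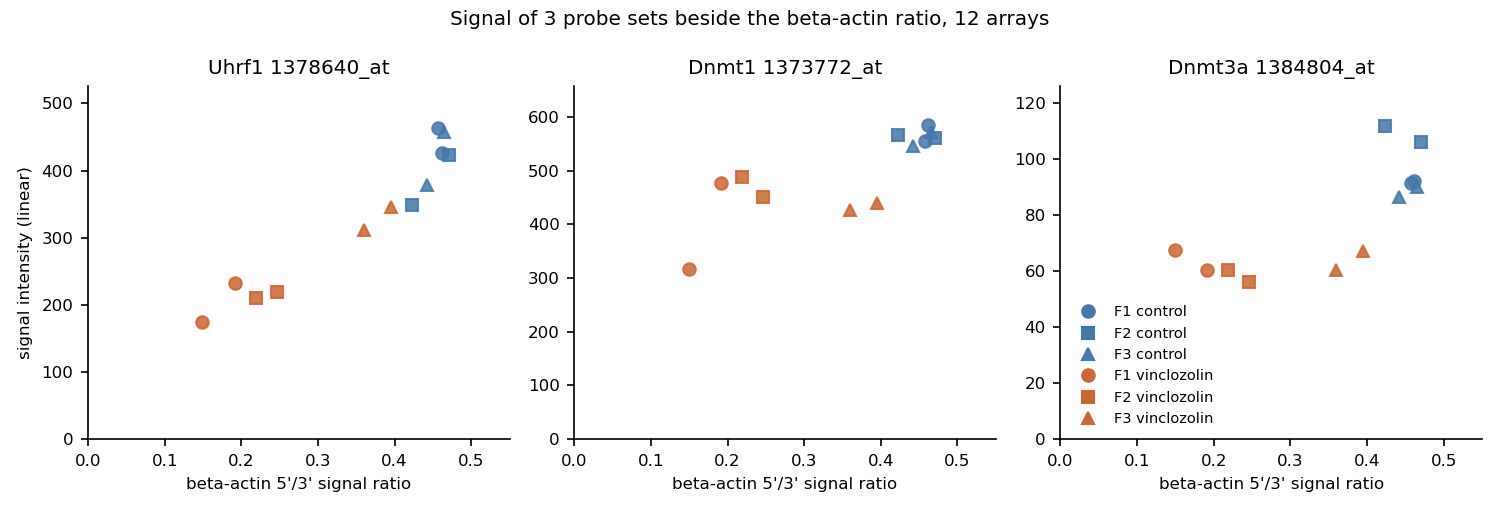
Signal intensity of member probe sets (vertical axis, linear) against the beta-actin 5′ to 3′ ratio of the array (horizontal axis) for the 12 arrays, by lineage and generation. The control arrays cluster at ratios of 0.423 to 0.471, and Uhrf1 signal is lowest, at 175, on the array with the ratio of 0.149. Dnmt3a 1384804_at is at 67.4 on that array and lowest, at 56.0, on the F2 vinclozolin array with the ratio of 0.246.

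Markers of the tissue were present: Amh, the hormone of fetal Sertoli cells, gave 2397 to 3418 on all arrays. Of 12 listed Sertoli genes 11 were tested: 2 were called higher and 2 lower in F1, 0 and 1 in F2, and 0 in F3. In F1 Ptgds (1.15) and Fgf9 (0.48) were higher, and Dmrt1 (−1.29) and Inhbb (−0.44) lower. Dimmer probe sets of Cldn11, Gata4, Wt1 and Nr5a1 were also called lower in F1, while their brightest were not called. Germ cell markers, each read by its brightest probe set, were either called lower or not called. Of 21 listed germ cell markers 9 had a probe set and were tested, and Ddx4, Dazl and Pou5f1 were not analysed here. In F1, 3 of the 9 were called lower, where 13.7% of all probe sets were: Kit, a receptor that germ cells carry (−1.86, limma adjusted p = 0.000142), Sox2 (−0.95, adjusted p = 0.00601) and Mov10l1 (−0.74, adjusted p = 0.017). In F2, 2 were called lower (background 9.65%), and in F3 0. None was called higher, and their median was −0.20, −0.06 and −0.11 in F1, F2 and F3. Dimmer probe sets of Sox2 were also called lower. Its 1381874_at gave −1.13 in F1 (adjusted p = 0.0100) and −1.49 in F3 (adjusted p = 0.0119), and was not called in F2. Its 1375153_at gave −1.31 in F1 (adjusted p = 0.00065) and −1.65 in F2 (adjusted p = 0.000244), and was not called in F3. The summed signal of the 9 was 1183 to 1240 on the controls, 768 to 1046 in F1, 1058 to 1091 in F2 and 1166 to 1189 in F3 vinclozolin, and none was at 0 on any array. The part of germ cell number in the member values was not tested. Read by brightest probe sets, erythroid genes were called higher for 6 of 8 in F1, 1 of 8 in F2 and 6 of 8 in F3. Leydig cell genes were called higher for 2, 3 and 3 of 8, with 1, Lhcgr, lower in F1 (−0.41, adjusted p = 0.0206). Some dimmer probe sets were called lower. In F2, Star gave 0.49 on its brightest probe set and −0.51 on 1387174_a_at (adjusted p = 0.00667). Lhcgr 1369033_at gave −1.42 in F1 and −1.04 in F2 (adjusted p = 0.00387), and the erythroid Slc4a1 1369634_at −0.80 in F1 (adjusted p = 0.00153). Interstitial and stroma genes were called lower for 3, 4 and 2 of 8, and higher for 1, 1 and 0. Their summed signal was 12580 to 13577 on control and 10984 to 12010 on vinclozolin arrays. Of all probe sets, 9.41%, 4.7% and 1.05% were called higher in F1, F2 and F3, and 13.7%, 9.65% and 2.06% lower. The part of these cell types in the member values was not tested.

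Other genes of DNA demethylation moved in both directions. Of 15 listed TET relatives and base excision genes 12 were tested: 1 was called higher and 3 lower in F1, and 0 either way in F2 and F3. The shares of all probe sets in F1 were 9.41% called higher and 13.7% lower. Tet1, another enzyme that oxidises methylated cytosine, fell in F1 (−0.62 ± 0.12, limma adjusted p = 0.00168), with −0.24 in F2 (adjusted p = 0.188) and 0.03 in F3 (adjusted p = 0.931). Gadd45a, a stress-induced adaptor, was −0.48 (adjusted p = 0.0364) and Parp1, which answers DNA strand breaks, −0.38 (adjusted p = 0.0141) in F1. Gadd45a lost its F1 call under median centring, quantile and loess normalization (adjusted p = 0.0939, 0.0948 and 0.0643). Parp1 lost it under median centring (−0.26, adjusted p = 0.0578) and kept it under quantile (−0.49, adjusted p = 0.00467) and loess normalization (−0.50, adjusted p = 0.00393). Apex1, the endonuclease that cuts abasic sites, rose in F1 (0.42, adjusted p = 0.0094). In F2 the smallest p belonged to Tdg, the glycosylase of oxidised cytosine (0.28, adjusted p = 0.0907), and to Gadd45g (0.34, adjusted p = 0.175). In F3 they belonged to Ung (−0.36, adjusted p = 0.159) and Neil1 (−0.29, adjusted p = 0.410), glycosylases that remove damaged bases. Tet2 was not called in any generation (−0.22, −0.14 and −0.06). The median of the list was 0.01, −0.13 and −0.03.

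Partners of the methyltransferases were mixed too. Of 26 listed, 22 were tested by their brightest probe set. Called were 4 higher and 2 lower in F1, 1 and 2 in F2, and 2 and 2 in F3, with medians of −0.01, 0.01 and −0.03. The F1 split depended on the scaling: 5 higher and 2 lower under median centring, and 3 and 4 under quantile and loess normalization. Of all probe sets, 9.41% were called higher and 13.7% lower in F1, 4.7% and 9.65% in F2, and 1.05% and 2.06% in F3. Ehmt1, a methyltransferase of histone H3 lysines, was called lower in all 3 generations: −0.60 ± 0.09 (limma adjusted p = 0.000377), −0.54 (adjusted p = 0.00156) and −0.60 (adjusted p = 0.00368). Cdca7l, of the CDCA7 family, was called higher in all 3: 0.44 (adjusted p = 0.00524), 0.60 (adjusted p = 0.0012) and 0.52 (adjusted p = 0.0119). Both held under median centring, quantile and loess normalization. Dmap1, a Dnmt1-binding protein, was 0.53 in F1 (adjusted p = 0.00253), and Cbx1, a heterochromatin protein, 0.45 in F1 (adjusted p = 0.00267) and 0.36 in F3 (adjusted p = 0.0495, lost under quantile and loess normalization) on its brightest probe set. Its probe set 1385157_at gave −1.81 in F1 (adjusted p = 4.4e-06), −1.62 in F2 and −0.73 in F3 (adjusted p = 0.022), so the direction of Cbx1 depends on the probe set. Suv39h2, a histone H3 methyltransferase, was −0.41 in F2 (adjusted p = 0.048), lost under all 3 other scalings. Usp7, a deubiquitinase that binds Dnmt1 and Uhrf1, was −0.54 in F3 (adjusted p = 0.00535) on its brightest probe set. On that probe set Usp7 was 0.29 in F1, and its other probe sets 1385527_at, 1394393_at and 1393042_at gave −1.27, −0.39 and −0.04 there, so its direction depends on the probe set. Ctcf was −0.44 in F1 (adjusted p = 0.0104) and was not called in F2 or F3. Hdac1 and Nsd1 were not called on their brightest probe sets in any generation. Hdac1 1396820_at gave −1.44 in F1 (adjusted p = 5.38e-06), −0.90 in F2 (adjusted p = 0.000402) and −0.16 in F3 (adjusted p = 0.544). Nsd1 1380221_at gave −0.71 in F1 (adjusted p = 0.00479), and Nsd1 1379560_at was not called. Uhrf2, the relative of Uhrf1, was not called in any generation (−0.05, −0.05 and −0.06), nor was the replication clamp Pcna (0.13, 0.01 and 0.20).

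Readers of methylated DNA and the supply of methyl groups were read by the brightest probe set of each gene. Of all probe sets, 13.7% were called lower and 9.41% higher in F1, 9.65% and 4.7% in F2, and 2.06% and 1.05% in F3. Of 9 readers 7 were tested, and Zbtb38, a zinc finger protein that binds methylated DNA, was the only call: −0.76 ± 0.17 in F1 (limma adjusted p = 0.0056), −0.56 in F2 (adjusted p = 0.0451, lost under all 3 other scalings) and −0.32 in F3 (adjusted p = 0.356). In F3 the smallest p belonged to Mbd2 (0.30, adjusted p = 0.195) and Mbd5 (−0.42, adjusted p = 0.252), of the methyl-CpG binding domain family. Zbtb4 was not called on its brightest probe set (0.20 in F1), while its 1375302_at gave 0.49 in F1 (adjusted p = 0.0215). Of 15 methyl donor genes 12 were tested, with 1 called higher in F1, 1 in F2 and 0 lower in either. Mat2a, which makes S-adenosylmethionine, was 0.35 in F1 on its brightest probe set (adjusted p = 0.0115, and 0.0562 with loess normalization). Its probe set 1387737_at gave −1.61 in F1 (adjusted p = 1.4e-05) and −1.14 in F2 (adjusted p = 0.000454), so the direction of Mat2a depends on the probe set as well. Ahcyl1 was not called on its brightest probe set (0.13 in F1). Its dimmer 1395273_at and 1383004_at gave −1.75 (adjusted p = 2.62e-06) and −1.35 (adjusted p = 0.000199) in F1. In F2 they gave −1.44 (adjusted p = 2.4e-05) and −0.93 (adjusted p = 0.00539), and neither was called in F3. Mtrr, which reactivates methionine synthase, rose in F2 (0.34, adjusted p = 0.026). In F3 there were 0 calls, and the smallest p belonged to the dim Cbs (0.69, adjusted p = 0.0959) and Mat2b (0.23, adjusted p = 0.184). The medians of this list were −0.04, 0.08 and 0.14.

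**Figure D5:**
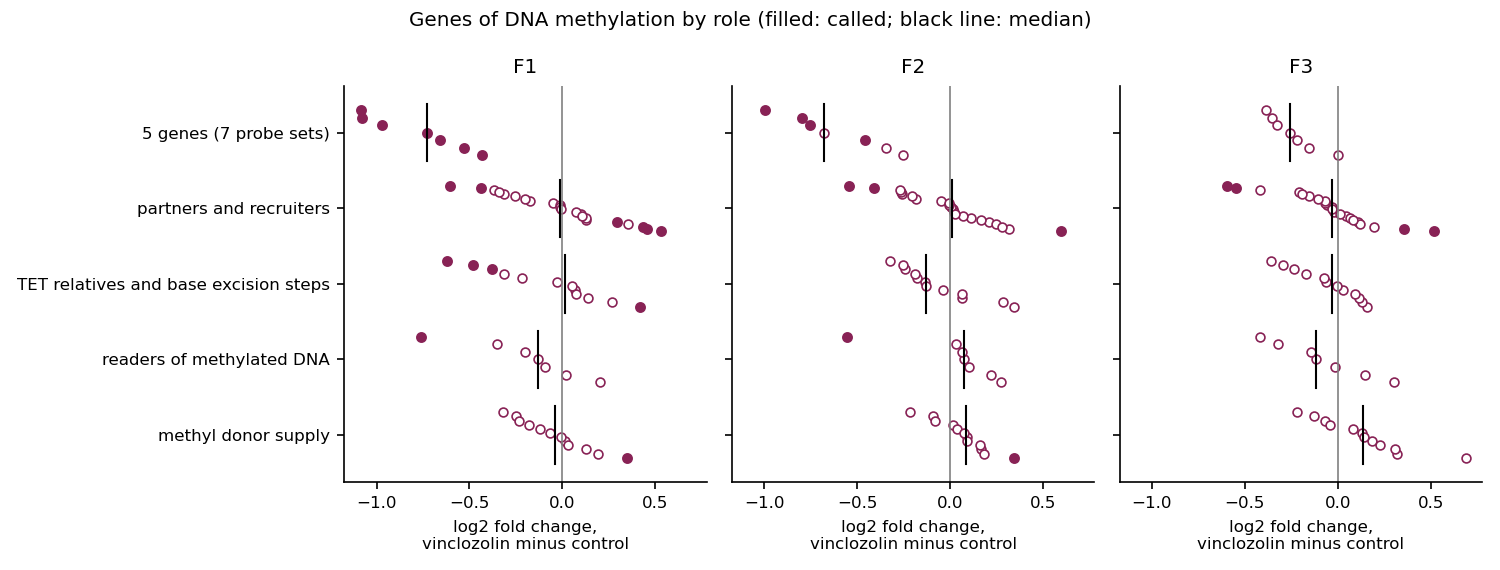
Log2 difference (vinclozolin minus control) of the genes in the pathway lists and of the member probe sets in each generation, with called genes marked. The 7 member probe sets have medians of −0.73, −0.68 and −0.26, and the list of partners has medians of −0.01, 0.01 and −0.03. Members are shown by every tested probe set and list genes by their brightest one only, so these medians are not like for like. Dimmer probe sets of some partners, among them Hdac1 and Cbx1, fell in F1 and are not shown.

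The genes whose log2 signal followed each member most closely over the 12 arrays are given as a description, since the separation of the lineages enters every value. For Uhrf1 they were Cstf1 (Pearson r = 0.984), Ints6 (0.983) and Osbpl2 (0.976). For Dnmt1 they were Ipo4 (0.990), Wnt6 (0.989) and Nucb1 (0.982). For Dnmt3a 1392678_a_at they were Abcc5 (0.964), Mef2a (0.961) and Alkbh5 (0.957), and for Dnmt3b they were Ubqln1 (0.947), Mid2 (0.941) and Slc25a51l1 (0.940). For Tet3 1397558_at they were Stt3b (0.991), Mycn (0.984) and Dicer1 (0.984).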

How the data were processed

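Total RNA of day 16 rat testes was labelled with biotin and hybridised by standard Affymetrix procedures, per the labels' protocols. The deposited values are the authors' linear signal intensity per probe set, from 0 to 9534.9 with 33 values at 0. The 2% trimmed mean was near 125.03 on every array, so the values had been globally scaled before deposit. Which software summarised the probes is not given in the sources used here. Detection calls were not used, and 57 array controls among 31099 probe sets were left out. Array annotation gave 20826 probe sets 1 gene symbol, 436 several and 9780 none.

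Values were used as log2(signal + 16), which understates the changes of dim probe sets. The dimmest 30% of probe sets, those under a mean signal near 14.8, were dropped, leaving 21729. In limma 3.58.1 (R 4.3.3), 1 linear model with a mean per group covered all 12 arrays (lmFit, eBayes with trend; 6 residual and 8.97 prior degrees of freedom). Adjustment was by Benjamini-Hochberg over all tested probe sets, called at an adjusted p under 0.05. Within-gene differences were fitted the same way over 6158 pairs of probe sets. The smallest p of an exact 2-sided permutation test between groups of 2 is 0.333, so a separation of lineages within 1 generation is given as a description. The code was tested on simulated data. Precision is limited by the number of arrays.

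Each list gene was read by its brightest tested probe set. Named were all member probe sets, for each pathway list and generation up to 4 called genes with the largest changes (where none was called, the 2 genes of smallest p), and the 3 genes most correlated with each member. Tet2, Uhrf2, Pcna, Ahcyl1, Hdac1, Nsd1, Ctcf, Zbtb4 and the marker genes were named beside these after their values were seen. So were the further probe sets of list and marker genes. The members and lists were chosen with earlier results of these data known. Replicate numbers did not pair the arrays. Alternatives covered pseudocount, filter, scaling, trend, array weights, the replicate block, the beta-actin ratio, the arrays fitted and each array left out.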

Additional observations from a re-analysis of the deposited data

Results flagged for a closer look

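In the main fit, the lineage difference of Uhrf1 (1378640_at) was larger in F1 than in F3. On the log2 scale the F1 difference minus the F3 difference was −0.75 ± 0.19 (SE), with a limma adjusted p of 0.0386 over all probe sets. Uhrf1 was lower on all 6 vinclozolin arrays than on all 6 control arrays, as were 7.73% of all probe sets. It stood at 45.8% of the control mean in F1 and 78.6% in F3. Its F test over the 3 generations did not pass (adjusted p = 0.101), and the difference of generations was called under 8 of 23 alternatives. With the beta-actin ratio as covariate the F1 minus F3 value was 0.57 and not called. That ratio was 0.149 to 0.192 on the F1 and 0.360 to 0.395 on the F3 vinclozolin arrays, so generation and RNA quality cannot be told apart here.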

How the results depend on the processing

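The number of member probe sets called lower was 7 in F1, 4 in F2, 0 in F3 and 7 over the mean. With the beta-actin ratio as covariate it was 0 in F1, 0 in F2 and 0 over the mean. Fitting only the 4 arrays of a generation gave 3 in F1 and 1 in F3, and array weights gave 2 in F3. Leaving out 1 array at a time gave 3 to 7 in F1, 3 to 6 in F2, 0 to 1 in F3, 6 to 7 over the mean, and 0 to 4 members that differed between generations. The replicate block gave 7, 4, 0 and 7 and changed no other call on the members. Replicate deviations of the lineages correlated at −0.02, −0.04 and 0.03 in F1, F2 and F3, so the numbers are only names.

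With the beta-actin covariate these log2 differences changed sign: Dnmt1 0.51 in F1, 0.51 in F2 and 0.31 over the mean, Dnmt3b 1.15, 0.89 and 0.87, and Tet3 1397558_at 0.25, 0.26 and 0.17. Uhrf1 became 0.72 in F1, 0.54 in F2, 0.14 in F3, 0.47 over the mean and 0.57 for F1 minus F3, and the Tet3 pair −2.26, −1.62, −0.57 and −1.48. Under the same covariate, other differences kept their sign and were not called: Dnmt3a 1384804_at −0.67 in F1, −0.93 in F2 and −0.68 over the mean, Dnmt3a 1392678_a_at −1.24, −1.11 and −0.85, and Tet3 1378654_at −2.02, −1.35 and −1.31. Ratio and lineage go together, so the errors of this fit are wide. Differences near 0 also turned: Dnmt3b in F3 was −0.0040 with a pseudocount of 64 and −0.27 to 0.27 with 1 array left out. Over the same omissions Dnmt3a 1392678_a_at in F3 ran from −0.49 to 0.18, its pair in F3 from −0.51 to 0.040, and the Tet3 pair from −0.40 to 0.54 in F1, −0.11 to 0.33 in F2, −0.17 to 0.25 in F3 and −0.083 to 0.23 over the mean. The causes were not tested.

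Of all probe sets, 5026 were called in F1, 3118 in F2, 676 in F3 and 7245 over the mean, and 565 differed between generations. Without the beta-actin covariate the alternatives gave 2294 to 7183, 1083 to 4884, 65 to 2712, 4091 to 8854 and 64 to 3506. Median centring moved the median difference of all probe sets from −0.01 to 0.10 in F1 and to 0.11 in F2. It moved the share of calls that were lower from 59.3% to 37.4% in F1, 67.3% to 36.5% in F2, 66.3% to 50.3% in F3 and 57.6% to 33.6% over the mean.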
